A study of Caenorhabditis elegans with 9 samples.

Results

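The genes described here build, activate and equip the sperm of the nematode Caenorhabditis elegans. They comprise every protein-coding row of the deposited gene table whose public name is spe- followed by a number, together with fer-1, gsp-3, gsp-4, try-5, swm-1, snf-10, comp-1 and zipt-7.1, in all 42 genes of the 28749 in the table. They were chosen by name and not by level, though with earlier results of these data known. Nematode sperm are amoeboid cells that crawl on a cytoskeleton of major sperm protein (MSP), which spermatocytes pack into fibrous bodies attached to membranous organelles. A round spermatid stops transcription and later becomes a motile spermatozoon in a step called activation, in which the membranous organelles fuse with the cell surface. A hermaphrodite makes a limited stock of sperm as a larva and then switches its germ line to oocytes, whereas a male makes sperm throughout adult life, and fertilized hermaphrodites also hold the sperm of their mates.

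RNA from whole worms of 3 strains was sequenced, with 3 libraries per strain. N2 (Bristol) is the wild-type reference strain. WLZ1 carries the array wlzIs1, in which the promoter of snb-1, active in neurons throughout the animal, drives wild-type human LRRK2, a large kinase mutated in familial Parkinson's disease, together with the marker lin15(+). WLZ3 carries wlzIs3, with the same promoter and marker and the LRRK2 G2019S mutant. Worms were grown at 20 °C on plates of Escherichia coli OP50. Each transgene is represented by 1 strain, N2 is not transgenic, and the sources used here give no stage, age or sex. Whether the libraries of a strain stem from separate cultures is not stated, so the p-values gauge only how these libraries vary, which may be technical. The values are FPKM, fragments scaled to exon length and library size, and whole read numbers could be recovered from them. Library totals were 38128734 to 53336537 reads, but the sperm genes drew few of these: the 36 less abundant ones shared between 1375 and 5120 reads per library.

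The 42 genes were divided into 2 unequal classes of level, a choice made after the values were seen. Expression of at least 5 FPKM in every library was found for 6 genes, spe-39, spe-48, zipt-7.1, swm-1, spe-44 and spe-5. The other 36 were low: 31 of the 42 genes stayed under 1 FPKM in every N2 library, 17 stayed under 1 FPKM in all 9 libraries, and spe-27 and spe-29 had no read in any N2 library. The split used all 9 libraries, so a gene under 5 FPKM in any N2 library counts as low even where WLZ1 was high. Such genes were gsp-3, gsp-4, spe-11, spe-18 and spe-6, above 5 FPKM in every WLZ1 library. Ratios of WLZ1 to N2 in the 2 classes are therefore partly set by the split. Among the low genes, 1 WLZ3 library stood apart. Replicate 1 was the highest of the 3 WLZ3 libraries for 31 of the 36 low genes, and for 20 of them it was at least 2 times the mean of replicates 2 and 3. Replicate 1 was also the highest for 21 of the 36 in N2 and for 19 in WLZ1. These counts were not made over all genes, so they do not tell whether replicate 1 stands apart only in sperm genes. Results on WLZ3 are therefore given with and without its replicate 1 where it bears on them.

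**Figure D1:**
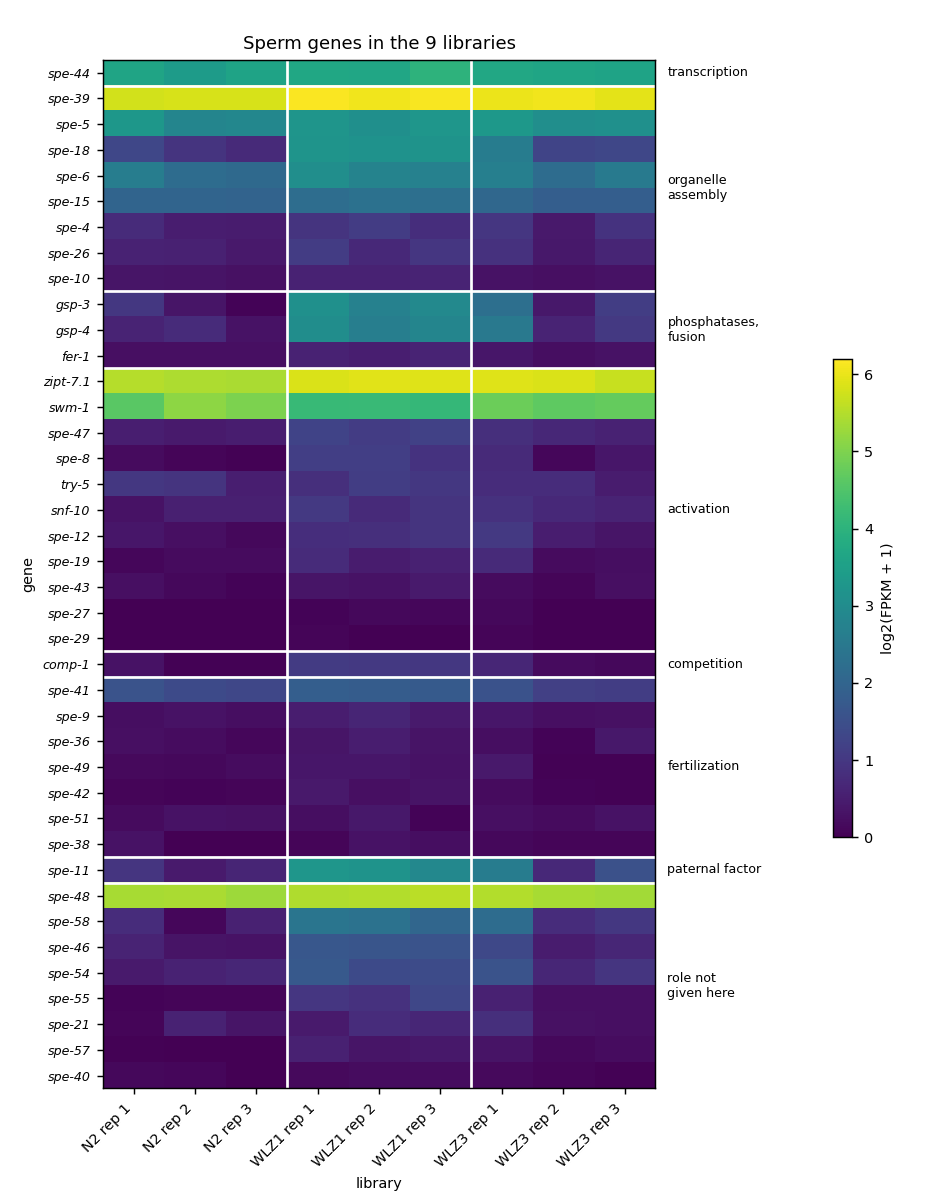
Colour shows log2(FPKM + 1) of 40 sperm genes (rows, grouped by role and ordered by their highest group mean) in the 9 libraries (columns, 3 per strain). The 6 genes at 5 FPKM or more in every library are bright across all columns; most of the others are dark in N2, brighter in the 3 WLZ1 libraries and in WLZ3 replicate 1.

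In WLZ1 the sperm genes stood above N2 almost throughout. All 3 WLZ1 libraries exceeded all 3 N2 libraries for 35 of the 42 genes, the reverse held for swm-1 alone, and the groups overlapped for spe-5, spe-21, spe-29, spe-38, spe-51 and try-5. Over the 26089 genes with any reads, 19.5% were separated upward in this way and 31.4% downward. The median ratio of the WLZ1 mean to the N2 mean was 2.30 over the sperm genes with reads in N2, 2.56 over the low ones and 1.18 over the 6 abundant ones. The medians of the low and the abundant genes are partly set by the split, which used these same values. WLZ3 exceeded N2 without overlap for 10 of the 42 genes and lay below it for none, against 14.1% and 21% of all genes with reads. Against WLZ1, WLZ3 was lower without overlap for 22 of the 42 genes and higher for swm-1, against 12.9% lower and 25.4% higher of all genes with reads. The 3 comparisons share libraries and are not independent of each other.

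The main test, limma on log2(FPKM + 1), covered only the genes with at least 1 FPKM in 3 or more libraries, which kept 19 of the 42 sperm genes. Of these, 9 passed through the WLZ1 libraries and would otherwise have been left out, so the counts among the 19 describe those genes and are no measure of the rest. In WLZ1 against N2, 14 of the 19 rose and swm-1 fell, where 26.6% of all 14862 tested genes rose and 41.1% fell. WLZ3 against N2 had 2 rises, zipt-7.1 and spe-39, and no fall, against 13.3% and 22.7% of all genes; an unadjusted p under 0.05 was reached by 5 of the 19. In WLZ3 against WLZ1, swm-1 rose and 9 genes fell, against 29.6% and 12.6% of all genes. The median log2 change of the 19 was 0.54, 0.20 and -0.45 in the 3 comparisons, beside -0.13, -0.02 and 0.10 over all genes tested. Leaving out WLZ3 replicate 2 raised the rises against N2 from 2 to 7 by adding gsp-3, gsp-4, spe-11, spe-54 and spe-58, and leaving out WLZ3 replicate 3 lowered the falls against WLZ1 from 9 to 5.

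The log2(FPKM + 1) scale flattens differences between low values. A second test, limma voom on the recovered reads, was therefore added after the data had been seen; it covered 40 of the 42 genes, all but spe-27 and spe-29. By voom 27 of the 40 rose in WLZ1 and swm-1 fell, where 21.7% of 21037 genes rose and 35.3% fell. In WLZ3, 4 rose over N2, among them spe-39, spe-57 and zipt-7.1, and none fell, against 8.78% and 18.1% of all genes. Without WLZ3 replicate 1 that count was 2 rises, spe-57 and zipt-7.1, and 1 fall, spe-49, against 5.07% and 13.9%. In WLZ3 against WLZ1 swm-1 rose and 17 genes fell, against 23.1% and 10.9% of all genes. The median voom change was 1.40 in WLZ1 and 0.49 in WLZ3, beside -0.27 and -0.07 over all genes. Rescaling shifted the reference for all genes: the median of all genes in WLZ1 against N2 moved from -0.13 to -0.01 with median-of-ratios factors and to 0.07 with quantile normalization, and the share of called genes that were higher moved from 39.3% to 50.9% and 56.5%. In WLZ3 against N2 that share moved from 36.9% to 43.4% and 51.3%, and in WLZ3 against WLZ1 from 70.2% to 48.1% and 47.9%. No sperm gene called in a comparison changed direction in it under any of these settings.

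**Figure D2:**
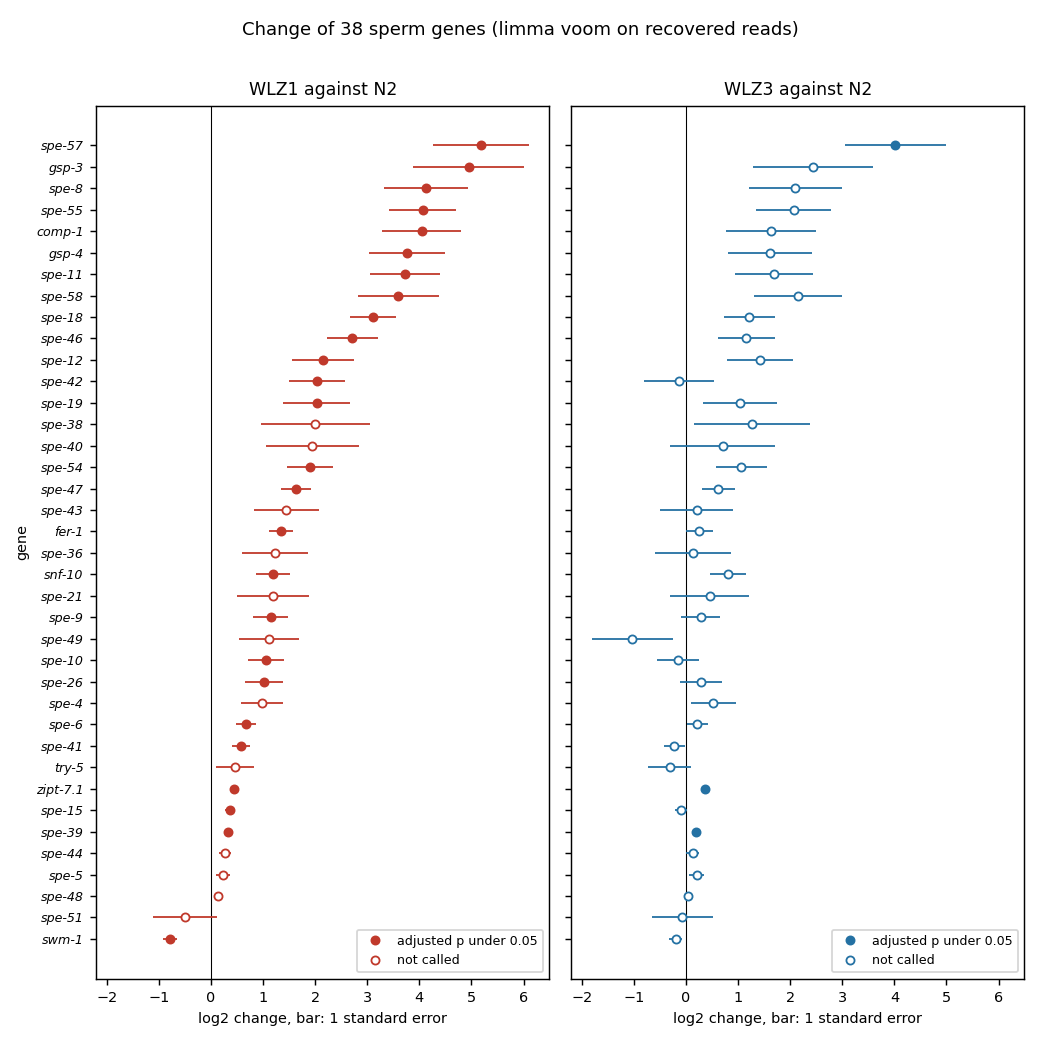
Log2 change of 38 sperm genes tested by voom (points, with a bar of 1 standard error; filled, adjusted p under 0.05). WLZ1 against N2 is on the left and WLZ3 against N2 on the right in the same gene order; most points lie to the right of 0, swm-1 at -0.79 and spe-51 at -0.50 lie to the left in WLZ1, and the WLZ3 points lie nearer to 0.

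Of the regulators of the sperm programme, spe-44, fog-1, elt-1 and cpb-1 differed by small amounts, and the male-fate signal her-1, given with the male markers, by more. spe-44 (C25G4.4, chromosome IV, 12452063 to 12454215 of WBcel235, as for all positions here), a SAND-domain transcription factor that turns on sperm genes, measured 11.2, 9.58 and 11.1 FPKM in N2, 11.9, 11.6 and 15.1 in WLZ1 and 12.2, 11.6 and 11 in WLZ3. Each WLZ1 library was above each N2 library, but by little, and the WLZ3 libraries overlapped both groups. The change in WLZ1 did not pass either test, with a log2 change of 0.25 ± 0.11 (SE; limma adjusted p = 0.0623) and a voom change of 0.27 ± 0.12 (SE; voom adjusted p = 0.0618). It did pass with median-of-ratios scaling, at 0.38 (limma adjusted p = 0.00745), with quantile normalization, at 0.69 (limma adjusted p = 0.000626), and without WLZ1 replicate 2 (limma adjusted p = 0.0387); under quantile normalization spe-44 also rose in WLZ3, at 0.34 (limma adjusted p = 0.0435). fog-1, which sets the sperm fate of germ cells, rose in WLZ1 from 15.6 ± 0.761 to 18.4 ± 1.57 FPKM (SD, n = 3 libraries; log2 change 0.22, limma adjusted p = 0.0188). fog-3, which acts with it, was too low for the main test, with 0.815, 0.639 and 0.61 FPKM in N2, 0.996, 0.62 and 0.866 in WLZ1 and 0.347, 0.668 and 0.884 in WLZ3. The GATA factor elt-1 fell in WLZ1, from 17.6 ± 0.987 to 14.2 ± 1.19 FPKM (SD, n = 3; limma adjusted p = 0.0203), a call kept under neither median-of-ratios scaling nor quantile normalization. cpb-1, an RNA-binding protein needed for spermatogenesis, rose in both transgenic strains, by 0.35 and 0.35 on the log2 scale (limma adjusted p = 0.000686 and 0.00347).

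The Argonautes that bind sperm small RNAs were rare in N2. alg-3 measured 0.208, 0.078 and 0.0248 FPKM in N2, 1.42, 1.38 and 1.35 in WLZ1 and 0.861, 0.156 and 0.198 in WLZ3. alg-4 measured 0.334, 0.0492 and 0.0234 FPKM in N2, 1.36, 1.28 and 1.28 in WLZ1 and 0.507, 0.186 and 0.181 in WLZ3. For both genes the 3 WLZ1 libraries were close together and above all others, and WLZ3 replicate 1 was the highest of the remaining 6. Both were under 1 FPKM in every N2 and WLZ3 library, so they passed the filter of the main test only through WLZ1. alg-3 rose in WLZ1 by 1.12 ± 0.19 (SE; limma adjusted p = 0.000664) and alg-4 by 1.03 ± 0.15 (SE; limma adjusted p = 0.000349), and neither passed the main test in WLZ3 against N2 (limma adjusted p = 0.207 and 0.36).

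Genes that assemble the sperm organelles ranged from abundant to undetected in N2. spe-18 (F32A11.3, chromosome II, 13151459 to 13153399), needed to assemble fibrous bodies, had the largest rise among those in the main test. It measured 1.49, 0.898 and 0.659 FPKM in N2, 8.24, 7.99 and 8.04 in WLZ1 and 5.07, 1.41 and 1.48 in WLZ3. The WLZ1 libraries agreed closely and were above all others, and WLZ3 replicate 1 lay between the 2 groups of libraries. The WLZ1 mean was 7.96 times the N2 mean, a log2 change of 2.19 ± 0.32 (SE; limma adjusted p = 0.000326). In WLZ3 the change against N2 was 0.74 ± 0.32 (SE; limma adjusted p = 0.103), and against WLZ1 spe-18 fell (log2 change -1.46 ± 0.32 SE, limma adjusted p = 0.00739).

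spe-6, a casein kinase 1 that MSP assembly needs and that also restrains activation, measured 5.17, 3.59 and 3.36 FPKM in N2, 7.31, 5.83 and 5.62 in WLZ1 and 5.35, 3.57 and 4.85 in WLZ3. WLZ1 did not overlap N2, and spe-6 rose by 0.54 ± 0.17 (SE; limma adjusted p = 0.0202), a call lost when N2 replicate 2, N2 replicate 3 or WLZ1 replicate 1 was left out (up to adjusted p = 0.0743). spe-15, the myosin VI that sorts material away from budding spermatids, measured 3.0, 3.01 and 2.9 FPKM in N2, 3.68, 4.0 and 3.81 in WLZ1 and 3.2, 2.59 and 2.6 in WLZ3. Its rise in WLZ1 was small, 0.28 ± 0.10 (SE; limma adjusted p = 0.0272), and was lost with a replicate block or without N2 replicate 2, N2 replicate 3, WLZ1 replicate 2 or WLZ1 replicate 3 (up to adjusted p = 0.0743). In WLZ3 neither differed from N2 past the threshold (limma adjusted p = 0.502 and 0.606), and spe-15 fell against WLZ1 (log2 change -0.35 ± 0.10 SE, limma adjusted p = 0.0189), a call lost without WLZ1 replicate 2, WLZ3 replicate 2 or WLZ3 replicate 3 (up to adjusted p = 0.0694).

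spe-10, a palmitoyltransferase of the organelle, spe-26, a kelch-repeat protein associated with actin, and spe-4, a presenilin-family protein, were under the filter of the main test. spe-10 measured 0.271, 0.257 and 0.21 FPKM in N2, 0.501, 0.516 and 0.534 in WLZ1 and 0.224, 0.192 and 0.236 in WLZ3. spe-26 measured 0.517, 0.491 and 0.343 FPKM in N2, 1.15, 0.629 and 0.963 in WLZ1 and 0.83, 0.326 and 0.552 in WLZ3. spe-4 measured 0.692, 0.401 and 0.382 FPKM in N2, 0.907, 1.14 and 0.756 in WLZ1 and 0.967, 0.335 and 0.887 in WLZ3. All 3 had non-overlapping WLZ1 and N2 libraries, and the WLZ1 mean was 2.1, 2.03 and 1.9 times that of N2. By voom spe-10 rose by 1.06 ± 0.34 (SE; voom adjusted p = 0.019) and spe-26 by 1.02 ± 0.37 (SE; voom adjusted p = 0.0311), whereas spe-4 had a change of 0.98 ± 0.40 (SE; voom adjusted p = 0.0538). The WLZ3 values of spe-10 overlapped those of N2, replicate 1 included.

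The abundant organelle genes were spe-39 and spe-5. spe-39 (ZC404.3, chromosome V, 6785457 to 6787864), a vesicle traffic protein used in many tissues, measured 53.5, 55.6 and 55.3 FPKM in N2, 71, 66.2 and 69.5 in WLZ1 and 63.4, 65.5 and 60.1 in WLZ3. All 3 groups were separate, with N2 lowest and WLZ1 highest. spe-39 rose in WLZ1 by 0.33 ± 0.05 (SE; limma adjusted p = 0.000253) and in WLZ3 by 0.20 ± 0.05 (SE; limma adjusted p = 0.0118); by voom without WLZ3 replicate 1 the second had adjusted p = 0.0518. The difference between the transgenic strains was -0.13 ± 0.05 (SE; limma adjusted p = 0.0504), which passed with median-of-ratios scaling, at -0.25 (limma adjusted p = 0.0025), and without WLZ1 replicate 2 or WLZ3 replicate 2. spe-5, a B subunit of the proton pump V-ATPase, measured 8.78, 6.13 and 6.36 FPKM in N2, 8.48, 7.51 and 8.49 in WLZ1 and 8.92, 7.36 and 7.68 in WLZ3. Its groups overlapped, and the log2 change was 0.19 ± 0.13 (SE; limma adjusted p = 0.213) in WLZ1; it passed with median-of-ratios scaling, at 0.32 (limma adjusted p = 0.043), under quantile normalization, at 0.72 (limma adjusted p = 0.00203), and without N2 replicate 1, at 0.34 (limma adjusted p = 0.0168). Without N2 replicate 1 it passed in WLZ3 too, at 0.31 (limma adjusted p = 0.0418). Of the 9 organelle genes, 8 had WLZ1 libraries all above N2 and 7 rose in WLZ1 by voom, against 19.5% and 21.7% of all genes.

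The phosphatases GSP-3 and GSP-4 had, with spe-11, the largest changes of the 19 genes in the main test; by voom, which covers more low genes, spe-57, spe-8, spe-55 and comp-1 had larger changes than gsp-4 and spe-11 (5.18, 4.13, 4.06 and 4.05 against 3.77 and 3.72). They are sperm-specific type 1 phosphatases, close copies of each other, that act in meiosis and in crawling. gsp-3 (W09C3.6, chromosome I, 4709259 to 4710712) measured 0.991, 0.268 and 0.0365 FPKM in N2, 7.58, 5.57 and 6.53 in WLZ1 and 3.78, 0.32 and 1.18 in WLZ3. gsp-4 (T03F1.5, chromosome I, 3838290 to 3839673) measured 0.547, 0.694 and 0.239 FPKM in N2, 7.17, 5.32 and 6.01 in WLZ1 and 4.68, 0.524 and 1.05 in WLZ3. For both genes the 3 WLZ1 libraries exceeded every other library, and WLZ3 spanned the gap, with replicate 1 well above its other 2 libraries.

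The WLZ1 mean of gsp-3 was 15.2 times and that of gsp-4 12.5 times the N2 mean. The ratio of gsp-3 rests on N2 replicate 1, its highest N2 library, and was 43.1 without it. gsp-3 rose by 2.45 ± 0.42 (SE; limma adjusted p = 0.000785) and gsp-4 by 2.27 ± 0.41 (SE; limma adjusted p = 0.00103). In WLZ3 the changes against N2 were 0.80 ± 0.42 (SE; limma adjusted p = 0.162) and 0.82 ± 0.41 (SE; limma adjusted p = 0.145), so neither passed. Against WLZ1 both fell, gsp-3 (log2 change -1.65 ± 0.42 SE, limma adjusted p = 0.0135) and gsp-4 (log2 change -1.45 ± 0.41 SE, limma adjusted p = 0.0202); the fall of gsp-3 was lost with a pseudocount of 0.1 (up to adjusted p = 0.0879) and that of gsp-4 without WLZ1 replicate 1, WLZ3 replicate 2 or WLZ3 replicate 3 and with no filter at that pseudocount (up to adjusted p = 0.0724). How reads of the 2 copies were divided cannot be told from the table, so the values of one gene may include reads of the other.

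fer-1, a member of the dysferlin family that fuses the membranous organelles with the cell surface, was rarer. It measured 0.201, 0.187 and 0.188 FPKM in N2, 0.497, 0.433 and 0.536 in WLZ1 and 0.287, 0.167 and 0.244 in WLZ3. N2 libraries were nearly equal, WLZ1 was above all other libraries, and WLZ3 overlapped N2. The reads behind these values were 48, 55 and 58 in N2 and 166, 136 and 179 in WLZ1. By voom fer-1 rose in WLZ1 by 1.34 ± 0.23 (SE; voom adjusted p = 0.000334), the change in WLZ3 was 0.25 ± 0.26 (SE; voom adjusted p = 0.503), and fer-1 fell in WLZ3 against WLZ1 (log2 change -1.09 ± 0.21 SE, voom adjusted p = 0.00231). comp-1, which gives sperm their competitive advantage in guidance, measured 0.224, 0.0303 and 0.0289 FPKM in N2, 1.11, 1.05 and 1.02 in WLZ1 and 0.587, 0.127 and 0.0978 in WLZ3. The WLZ1 values were again tightly grouped and separate from the rest. comp-1 rose in WLZ1 by 0.92 ± 0.17 (SE; limma adjusted p = 0.00105) and fell in WLZ3 against WLZ1 (log2 change -0.72 ± 0.17 SE, limma adjusted p = 0.0088).

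**Figure D3:**
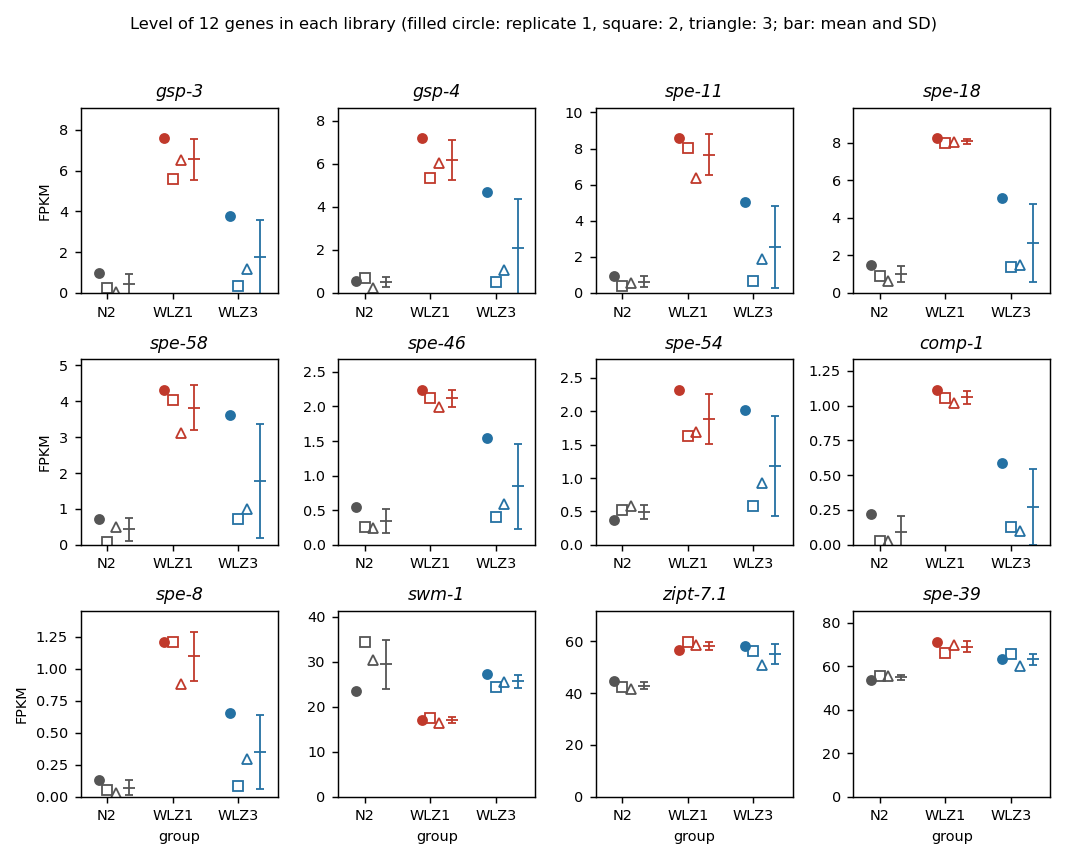
FPKM of 12 sperm genes in each library of N2 (grey), WLZ1 (red) and WLZ3 (blue); symbols mark the replicate number (filled circle, 1), and the bar beside each group is its mean and SD, cut at 0. For the genes from gsp-3 to spe-8 the WLZ1 libraries lie above all N2 libraries and WLZ3 replicate 1 is the highest WLZ3 library; swm-1 is lowest in WLZ1, at 17.1, 17.5 and 16.4 FPKM.

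Activation genes of the hermaphrodite pathway were mostly at a few reads in N2. The pathway runs through SPE-8, a non-receptor tyrosine kinase, with the membrane proteins SPE-12, SPE-19, SPE-29 and SPE-43 and the soluble SPE-27. spe-8 measured 0.132, 0.0536 and 0.0256 FPKM in N2, 1.21, 1.21 and 0.876 in WLZ1 and 0.656, 0.0841 and 0.297 in WLZ3. The WLZ1 mean was 15.6 times that of N2, from 102, 96 and 74 reads against 8, 4 and 2, and 27.7 times without N2 replicate 1. WLZ1 lay above the other 6 libraries and WLZ3 overlapped N2. By voom spe-8 rose in WLZ1 by 4.13 ± 0.80 (SE; voom adjusted p = 0.000865) and fell in WLZ3 against WLZ1 (log2 change -2.03 ± 0.51 SE, voom adjusted p = 0.00886).

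spe-12 measured 0.30, 0.194 and 0.0927 FPKM in N2, 0.75, 0.775 and 0.902 in WLZ1 and 1.04, 0.406 and 0.269 in WLZ3. WLZ3 replicate 1 was its highest library of all 9, and WLZ1 did not overlap N2. spe-19 measured 0.0824, 0.134 and 0.127 FPKM in N2, 0.707, 0.376 and 0.472 in WLZ1 and 0.658, 0.14 and 0.164 in WLZ3. Both WLZ1 and WLZ3 were above N2 for spe-19, the latter by a small margin in replicates 2 and 3. By voom spe-12 rose in WLZ1 by 2.15 ± 0.59 (SE; voom adjusted p = 0.0077) and spe-19 by 2.03 ± 0.65 (SE; voom adjusted p = 0.0174); in WLZ3 the changes were 1.42 ± 0.63 (SE; voom adjusted p = 0.115) and 1.04 ± 0.71 (SE; voom adjusted p = 0.301). spe-43 measured 0.19, 0.103 and 0.0491 FPKM in N2, 0.272, 0.241 and 0.363 in WLZ1 and 0.131, 0.0537 and 0.19 in WLZ3. The WLZ1 values were above those of the other strains, yet the voom change was 1.45 ± 0.62 (SE; voom adjusted p = 0.0621), from 16 reads or fewer per library.

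spe-27 and spe-29 were at the limit of detection. Although spe-27 counts among the separated genes, it had no read in N2, 1, 2 and 2 reads in WLZ1 and 2, 0 and 0 in WLZ3, or 0.0412, 0.0877 and 0.0826 FPKM in WLZ1 and 0.0953, 0 and 0 in WLZ3. spe-29 had no read in N2, 1, 0 and 0 in WLZ1 and 1, 0 and 0 in WLZ3, or 0.0547, 0 and 0 and 0.0632, 0 and 0 FPKM. All of these are under a floor of 6 reads (3 fragments) per library, so no difference between strains could be detected for either gene. These are also the 2 genes with the largest exon overlap with neighbours, 34.1% of the exon bases of spe-29 with gon-1 on the other strand and 13.4% of those of spe-27 with C06E7.88.

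spe-47, an MSP-domain protein that times activation, rose in WLZ1 and was intermediate in WLZ3. It measured 0.439, 0.356 and 0.42 FPKM in N2, 1.36, 1.16 and 1.29 in WLZ1 and 0.794, 0.602 and 0.515 in WLZ3. The 3 groups did not overlap, with N2 lowest. The rise in WLZ1 was 0.69 ± 0.12 (SE; limma adjusted p = 0.000688), the change in WLZ3 against N2 was 0.22 ± 0.12 (SE; limma adjusted p = 0.167), and WLZ3 fell against WLZ1 (log2 change -0.47 ± 0.12 SE, limma adjusted p = 0.0114). zipt-7.1 (T28F3.3, chromosome IV, 17285733 to 17287454), a zinc transporter that acts in activation, measured 44.5, 42.5 and 41.7 FPKM in N2, 56.6, 59.7 and 58.6 in WLZ1 and 58.2, 56.4 and 50.7 in WLZ3. Both transgenic strains were above N2 in every library and overlapped each other. zipt-7.1 rose by 0.43 ± 0.06 (SE; limma adjusted p = 0.000159) in WLZ1 and by 0.35 ± 0.06 (SE; limma adjusted p = 0.00301) in WLZ3, calls kept under every alternative run, and the difference between WLZ3 and WLZ1 was -0.08 ± 0.06 (SE; limma adjusted p = 0.269), which passed with median-of-ratios scaling, at -0.20 (limma adjusted p = 0.0318).

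Genes of activation in males did not move together. TRY-5 is a protease of seminal fluid, SNF-10 a transporter-family protein on spermatids that the response to such proteases needs, and SWM-1 a protease inhibitor that keeps male sperm from activating too early. try-5 measured 1.01, 0.904 and 0.431 FPKM in N2, 0.797, 1.19 and 1.02 in WLZ1 and 0.712, 0.73 and 0.379 in WLZ3. Its groups overlapped between N2 and each transgenic strain, with a log2 change of 0.18 ± 0.17 (SE; limma adjusted p = 0.37) in WLZ1. snf-10 measured 0.226, 0.459 and 0.447 FPKM in N2, 1.02, 0.66 and 0.918 in WLZ1 and 0.831, 0.65 and 0.526 in WLZ3. Both transgenic strains exceeded N2, and by voom snf-10 rose in WLZ1 by 1.20 ± 0.33 (SE; voom adjusted p = 0.00758), with 0.81 ± 0.34 (SE; voom adjusted p = 0.0993) in WLZ3.

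swm-1 (C25E10.9, chromosome V, 9054111 to 9054871) was the only sperm gene that fell in WLZ1. It measured 23.5, 34.4 and 30.3 FPKM in N2, 17.1, 17.5 and 16.4 in WLZ1 and 27.2, 24.3 and 25.6 in WLZ3. All WLZ1 libraries were below all others, N2 replicate 1 was the lowest of its group, and the WLZ3 values lay inside the N2 range. The WLZ1 mean was 0.578 times the N2 mean, a log2 change of -0.74 ± 0.12 (SE; limma adjusted p = 0.000461). The change in WLZ3 against N2 was -0.17 ± 0.12 (SE; limma adjusted p = 0.263), a fall that passed without N2 replicate 1 (-0.32, limma adjusted p = 0.0129), and WLZ3 rose above WLZ1 by 0.57 ± 0.12 (SE; limma adjusted p = 0.00507). Of the 11 activation genes 8 had WLZ1 libraries all above N2, and 6 rose and 1 fell by voom among the 9 it tested. Over all genes these shares were 19.5%, 21.7% and 35.3%.

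Genes of the sperm surface and of fertilization were rare in all strains, with spe-41 the highest. spe-41, the TRPC calcium channel also called TRP-3, measured 1.98, 1.61 and 1.49 FPKM in N2, 2.63, 2.47 and 2.36 in WLZ1 and 1.94, 1.26 and 1.19 in WLZ3. WLZ1 was above the other 2 strains, which overlapped. spe-41 rose in WLZ1 by 0.38 ± 0.14 (SE; limma adjusted p = 0.0361) and fell in WLZ3 against WLZ1 (log2 change -0.51 ± 0.14 SE, limma adjusted p = 0.0171). The first call was lost in 7 of the alternatives, up to adjusted p = 0.111, and the second without WLZ1 replicate 1, WLZ3 replicate 2 or WLZ3 replicate 3, up to 0.0654. By voom it rose by 0.58 ± 0.18 (SE; voom adjusted p = 0.0136) in WLZ1 and fell in WLZ3 against WLZ1 (log2 change -0.80 ± 0.18 SE, voom adjusted p = 0.0051).

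The others were tested by voom alone. spe-9, an EGF-repeat membrane protein needed to fertilize the oocyte, measured 0.181, 0.231 and 0.17 FPKM in N2, 0.408, 0.552 and 0.371 in WLZ1 and 0.30, 0.198 and 0.223 in WLZ3. spe-42, a membrane protein of the DC-STAMP type, measured 0.0618, 0.0501 and 0.0637 FPKM in N2, 0.339, 0.188 and 0.251 in WLZ1 and 0.136, 0.0349 and 0.0308 in WLZ3. spe-49, a relative of SPE-42, measured 0.116, 0.103 and 0.163 FPKM in N2, 0.301, 0.305 and 0.234 in WLZ1 and 0.331, 0.0179 and 0.0315 in WLZ3. In all 3 the WLZ1 libraries were above N2. spe-9 rose in WLZ1 by 1.15 ± 0.34 (SE; voom adjusted p = 0.0114) and spe-42 by 2.04 ± 0.53 (SE; voom adjusted p = 0.00594), whereas spe-49 had 1.11 ± 0.58 (SE; voom adjusted p = 0.119). Against WLZ1, spe-42 fell in WLZ3 (log2 change -2.17 ± 0.54 SE, voom adjusted p = 0.00872) and so did spe-49 (log2 change -2.14 ± 0.69 SE, voom adjusted p = 0.0308). In spe-49 WLZ3 replicate 1 was the highest of all libraries and replicates 2 and 3 the lowest, and by voom without replicate 1 spe-49 fell in WLZ3 against N2, by 2.2 on the log2 scale (adjusted p = 0.046), whereas with it the change was -1.03 ± 0.77 (SE; voom adjusted p = 0.347).

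spe-36, a secreted EGF-repeat protein, measured 0.185, 0.15 and 0.0714 FPKM in N2, 0.28, 0.404 and 0.248 in WLZ1 and 0.172, 0.0391 and 0.31 in WLZ3. Its WLZ1 libraries were all above N2, and the voom change was 1.23 ± 0.64 (SE; voom adjusted p = 0.119). spe-38, a tetraspan membrane protein, measured 0.24, 0 and 0 FPKM in N2, 0.0572, 0.244 and 0.172 in WLZ1 and 0.0993, 0.0679 and 0.0598 in WLZ3. spe-51, a secreted immunoglobulin-like protein, measured 0.133, 0.242 and 0.218 FPKM in N2, 0.166, 0.328 and 0.0475 in WLZ1 and 0.192, 0.14 and 0.235 in WLZ3. For spe-38 and spe-51 the groups overlapped; spe-38 had reads in N2 in replicate 1 alone, and the voom changes in WLZ1 were 2.00 ± 1.05 (SE; voom adjusted p = 0.121) and -0.50 ± 0.61 (SE; voom adjusted p = 0.509). Of the 8 fertilization genes, 6 had WLZ1 libraries all above N2 and 4 rose by voom, and 3 fell in WLZ3 against WLZ1. Over all genes these shares were 19.5%, 21.7% and 10.9%.

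spe-11 (F48C1.7, chromosome I, 5330578 to 5332169) encodes a protein that sperm deliver to the egg and that the early embryo needs. It measured 0.94, 0.37 and 0.561 FPKM in N2, 8.56, 8.02 and 6.38 in WLZ1 and 5.06, 0.637 and 1.89 in WLZ3. WLZ1 exceeded all other libraries, and WLZ3 replicate 2 fell inside the N2 range while replicates 1 and 3 were above it. The WLZ1 mean was 12.3 times the N2 mean, a log2 change of 2.42 ± 0.39 (SE; limma adjusted p = 0.000565). In WLZ3 the change was 0.93 ± 0.39 (SE; limma adjusted p = 0.093), and against WLZ1 spe-11 fell (log2 change -1.49 ± 0.39 SE, limma adjusted p = 0.0154).

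For 8 further spe genes no role is given here. spe-58 measured 0.72, 0.0729 and 0.487 FPKM in N2, 4.31, 4.04 and 3.12 in WLZ1 and 3.61, 0.724 and 1.01 in WLZ3. spe-46 measured 0.547, 0.253 and 0.242 FPKM in N2, 2.23, 2.12 and 2.0 in WLZ1 and 1.55, 0.397 and 0.584 in WLZ3. spe-54 measured 0.372, 0.517 and 0.575 FPKM in N2, 2.32, 1.64 and 1.69 in WLZ1 and 2.02, 0.585 and 0.932 in WLZ3. All 3 had every WLZ1 library above N2, and the WLZ3 libraries of spe-58 and spe-54 were all above N2 as well, narrowly so in replicate 2. They rose in WLZ1 by 1.78, 1.22 and 0.95 on the log2 scale (limma adjusted p = 0.00151, 0.000896 and 0.00439), and spe-46 fell in WLZ3 against WLZ1 (log2 change -0.81 ± 0.21 SE, limma adjusted p = 0.0159), a call lost without WLZ3 replicate 3 and with no filter at a pseudocount of 0.1 (up to adjusted p = 0.0588). spe-48 was abundant, between 38.5 and 46.2 FPKM in all libraries, with a log2 change of 0.13 ± 0.05 (SE; limma adjusted p = 0.0626) in WLZ1, which passed with median-of-ratios scaling, at 0.27 (limma adjusted p = 0.00246), but not with quantile normalization.

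spe-55 measured 0.0441, 0.0537 and 0.0682 FPKM in N2, 0.978, 0.839 and 1.48 in WLZ1 and 0.492, 0.187 and 0.198 in WLZ3. spe-57 measured 0.0283, 0 and 0 FPKM in N2, 0.475, 0.28 and 0.324 in WLZ1 and 0.257, 0.0958 and 0.148 in WLZ3. Both were near absence in N2: spe-55 had 2, 3 and 4 reads in N2 and 62, 50 and 94 in WLZ1, and spe-57 had 2, 0 and 0 and 47, 26 and 32. All WLZ3 libraries were above all N2 libraries for both. By voom both rose in WLZ1 (adjusted p = 0.000219 and 0.000474), and in WLZ3 spe-57 rose over N2 (adjusted p = 0.0099) while spe-55 had adjusted p = 0.0515. spe-21 and spe-40 ranged from 0 to 0.797 FPKM over all libraries, and neither passed voom in any comparison.

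The summed level of the low genes also differed between strains. All 36 summed to 14.4 to 21.2 FPKM in N2, 59.9 to 68.9 in WLZ1 and 17.1 to 47.5 in WLZ3. The WLZ1 mean was 3.65 times that of N2, and the WLZ3 mean 1.68 times with its replicate 1 and 1.15 times without it. Without spe-6, spe-15 and spe-41, whose N2 levels were highest (left out after the values were seen), the remaining 33 low genes summed to 11.1, 8.24 and 6.65 FPKM in N2, to 55.3, 49 and 48.1 in WLZ1 and to 37.1, 9.65 and 14.2 in WLZ3. Over these 33 the WLZ1 mean was 5.86 times the N2 mean, a ratio that leaving out the 3 genes with the highest N2 levels raises. The WLZ3 mean was 2.34 times the N2 mean with its replicate 1 and 1.38 times without it. spe-6, spe-15 and spe-41 together summed to 10.1, 8.2 and 7.74 FPKM in N2, 13.6, 12.3 and 11.8 in WLZ1 and 10.5, 7.43 and 8.65 in WLZ3. Those 3 genes thus differed by 1.45 times between WLZ1 and N2 and overlapped between WLZ3 and N2. Gene by gene, WLZ3 replicate 1 lay above all N2 libraries for 29 of the 36 low genes and below all WLZ1 libraries for 22, whereas replicate 2 lay above all N2 libraries for 9 and replicate 3 for 18. The shares of all genes for single libraries were not computed, so these counts describe the low genes alone.

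Genes of the sperm product itself differed more steeply between the same libraries. The 30 protein-coding MSP genes summed to 75.1, 27.6 and 11.3 FPKM in N2, to 1140, 908 and 992 in WLZ1 and to 704, 91.2 and 226 in WLZ3. The WLZ1 mean was 26.7 times the N2 mean, and the WLZ3 mean was 8.96 times with its replicate 1 and 4.17 times without it. N2 replicate 1 held most of the N2 sum, and without it these ratios to all WLZ1 and all WLZ3 libraries were 52.1 and 17.5. Divided by the sum of the 33 sperm genes, MSP stood at 6.78, 3.35 and 1.69 in N2, at 20.6, 18.5 and 20.6 in WLZ1 and at 19, 9.45 and 15.9 in WLZ3. The ratio was therefore lower in every N2 library than in every transgenic library. All 27 tested MSP genes rose in WLZ1, led by msp-81 at 4.64, msp-57 at 4.63 and msp-53 at 4.62 on the log2 scale (limma adjusted p = 0.000406, 0.00019 and 0.000242). In WLZ3, 26 of the 27 rose over N2, and 20 fell against WLZ1, or 24 under quantile normalization and 27 with median-of-ratios scaling. Only 1 of the 27 reached 1 FPKM in every N2 library, so most passed the filter through libraries in which they were high, and the counts are no measure of the list as a whole. By voom, on all 30, 29 rose in WLZ1 and 19 in WLZ3, where 21.7% and 8.78% of all genes rose, and 27 fell in WLZ3 against WLZ1, where 10.9% of all genes fell. MSP genes are near-identical copies, so their separate values are uncertain. Of 32 tested further sperm genes, outside MSP and the 42, 30 rose and 2 fell in WLZ1 and 14 rose and 1 fell in WLZ3, beside 26.6% and 41.1% of all genes in WLZ1 and 13.3% and 22.7% in WLZ3. Of the 32, 10 passed the filter only through WLZ1 and 8 reached 1 FPKM in every N2 library; by voom, on 39 genes, 34 rose and 2 fell in WLZ1 and 10 rose and 1 fell in WLZ3. The largest rise in the main test was in nspd-2, at 4.66 in WLZ1 (limma adjusted p = 0.00204).

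**Figure D4:**
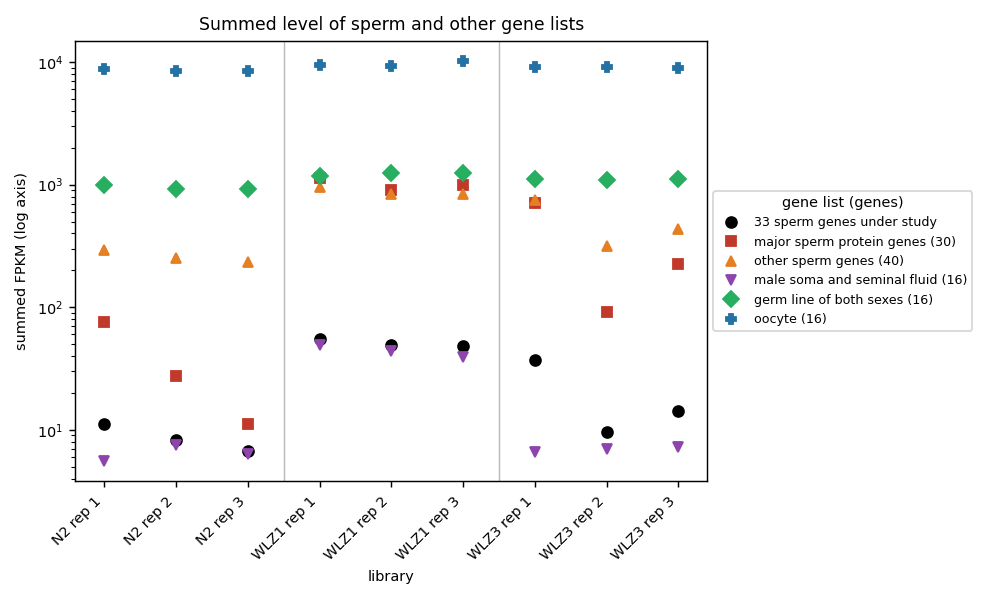
Summed FPKM (log axis) of the 33 low sperm genes and of 5 other lists in the 9 libraries, with the number of genes of each list in the key. The MSP sum ranges from 11.3 in N2 replicate 3 to 1140 in WLZ1 replicate 1, and the 33 sperm genes follow the same order of strains over a smaller range. On the log axis the oocyte and germ-line sums differ little, though both are higher in every transgenic library than in every N2 library.

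Markers of other cells moved along with these genes, and their part in the differences was not tested. In bulk samples of this kind, a different number of sperm-forming cells or animals and a different amount of RNA per cell cannot be told apart. Oocyte genes, 16 in the list, summed to 8412 to 8807 FPKM in N2, 9341 to 10265 in WLZ1 and 8917 to 9187 in WLZ3; 14 rose in WLZ1 and 10 in WLZ3. Examples of rises are puf-11, 0.49 in WLZ1 and 0.28 in WLZ3, and egg-1, 0.43 and 0.24, on the log2 scale (limma adjusted p = 1.66e-05, 0.00261, 0.00019 and 0.0139). The means of perm-2 and perm-4 were instead lower in WLZ1 than in N2, at 2273 against 2502 and 1281 against 1307 FPKM. No oocyte gene fell in the main test, and by voom 1 fell in WLZ1 and 1 in WLZ3. All 16 genes of the germ line of both sexes rose in WLZ1 and 11 rose in WLZ3, with rad-51 at 0.48 in WLZ1 (limma adjusted p = 2.72e-05). Of 17 tested genes that control sperm fate 11 rose and 1 fell in WLZ1, with median change 0.22, and 5 rose in WLZ3. Of all tested genes, 26.6% rose and 41.1% fell in WLZ1, and 13.3% rose and 22.7% fell in WLZ3. Apart from her-1, whose values follow, the changes in these 3 lists were under 1 on the log2 scale. The median change in WLZ1 was 0.38 for the oocyte list and 0.35 for the germ-line list. It was 0.54 for the 19 tested sperm genes and 0.22 for the 6 abundant ones. These medians are not like for like, because 9 of the 19 passed the filter only through WLZ1. All 16 oocyte and all 16 germ-line genes instead reached 1 FPKM in every N2 library. The 6 abundant genes were set apart by their level in all libraries. Changes above 2 were those of gsp-3, gsp-4, spe-11 and spe-18, the largest among the 19. All of these but spe-18 passed the filter only through WLZ1.

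Markers of males were few and uneven. Genes of male mating neurons, lov-1, pkd-2 and cwp-1 to cwp-5, summed to 1.31 to 1.76 FPKM in N2, 1.37 to 2.47 in WLZ1 and 0.861 to 1.09 in WLZ3, and lov-1 was at or near 0 in all libraries. Their sum joins genes that moved in opposite directions, named here after their values were seen. In WLZ1, cwp-1 went from 0.0346 ± 0.0599 to 0.422 ± 0.217 FPKM and cwp-2 from 0.0605 ± 0.105 to 0.731 ± 0.508 (SD, n = 3), and both rose by voom (adjusted p = 0.0142 and 0.0275), while cwp-4 fell, from 1.05 ± 0.20 to 0.399 ± 0.157 FPKM (SD, n = 3; voom adjusted p = 0.00218). The other 4 did not pass in WLZ1; pkd-2 measured 0.0684, 0.074 and 0.0529 FPKM in N2, 0.204, 0.13 and 0.0817 in WLZ1 and 0.0189, 0 and 0.0341 in WLZ3. In WLZ3 cwp-4 fell against N2 (voom adjusted p = 0.0381) and none rose. The whole male list of 16 genes summed to 5.54 to 7.45 FPKM in N2, 39.1 to 49.4 in WLZ1 and 6.6 to 7.2 in WLZ3. Most of its excess in WLZ1 lay in the C-type lectin gene clec-197, which rose from 0.568 ± 0.0965 to 32 ± 5.42 FPKM (SD, n = 3; limma adjusted p = 9.43e-07) and was at 0.558 ± 0.313 in WLZ3. As clec-197 was under 1 FPKM in every N2 and WLZ3 library, it passed the filter of the main test only through WLZ1. Without it the list summed to 4.98 to 6.78 in N2, 10.4 to 14.9 in WLZ1 and 6.22 to 6.43 in WLZ3. By voom, 5 of these 15 genes rose and 2 fell in WLZ1, where 21.7% and 35.3% of all genes did. The highest of these WLZ1 sums, in replicate 2, rests on plg-1, which measured 2.29, 8.69 and 1.64 FPKM in WLZ1. The mean of ram-5 went the other way, from 0.617 FPKM in N2 to 0.0798 in WLZ1. her-1, the signal that sets male fate and a gene of both the fate and the male list, rose in WLZ1, from 0.995 ± 0.172 to 3.58 ± 0.807 FPKM (SD, n = 3; limma adjusted p = 0.000128), and had 1.51 ± 0.156 in WLZ3. WLZ3 replicate 1, high in the sperm genes, did not stand above the other WLZ3 libraries in these sums. It had the lowest value in the whole list and in the mating neuron genes, at 6.6 and 0.861 FPKM, and without clec-197 it lay between the other 2, at 6.4 FPKM against 6.22 and 6.43.

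Of the somatic lists, muscle and cuticle genes mostly fell in WLZ1, and intestinal and yolk genes showed no common direction. Of 10 tested genes of the somatic gonad and spermatheca, 6 fell and 1 rose in WLZ1, and 4 fell in WLZ3, where 41.1% and 22.7% of all tested genes fell. Among the falls in WLZ1 were the sheath-cell factor ceh-18 at -1.32 and lim-7 at -1.17 (limma adjusted p = 7.89e-06 and 6.21e-05). The means of inx-8 and inx-9 were instead higher in WLZ1 than in N2, at 141 against 122 and 27.7 against 26 FPKM. The falls in WLZ1 numbered 5 under median-of-ratios scaling and 3 under quantile normalization, the median change going from -0.48 to -0.38 and -0.10. Of 8 muscle and cuticle genes 6 fell in WLZ1, such as the troponin gene tni-1 at -2.32 and the muscle myosin gene myo-3 at -1.92 (limma adjusted p = 3.22e-06 and 1.88e-06). In WLZ3, 4 of the 8 fell and 1 rose against N2, where 22.7% and 13.3% of all tested genes did. Means higher in WLZ3 than in N2 included col-19, at 346 against 184 FPKM, and tnt-2, at 136 against 114 FPKM. Both were highest in WLZ3 replicate 1: col-19 measured 503, 196 and 337 FPKM in WLZ3 and tnt-2 156, 113 and 137. The muscle and cuticle list summed to 942, 539 and 750 FPKM in the WLZ3 libraries, against 678 to 689 in N2. Replicate 1 thus also stood above the other WLZ3 libraries in this list. Of 8 intestinal and yolk genes 2 rose and 2 fell in WLZ1, with a median change of 0.01 (0.16 with median-of-ratios scaling), and none passed in WLZ3 in the main test.

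The chromosomes of the sperm genes, which the choice by name did not use, were uneven. Chromosome I held 17 of the 42 genes, or 40.5%, where it holds 14.5% of 19673 protein-coding genes. Chromosome IV held 12, V held 8, III held 3 and II held 2. None lay on the X chromosome, which holds 13.7% of protein-coding genes. The 30 MSP genes differed from this, with 12 on chromosome II and 18 on IV. WLZ1 libraries were all above N2 for 15 of the 17 genes on chromosome I, both on II, 2 of 3 on III, 10 of 12 on IV and 6 of 8 on V. This held for 19.5% of all genes with reads. No share was computed for all genes of each chromosome, so these counts do not compare chromosomes. The genes were spread out: the closest pair was spe-10 and snf-10, 52.6 kb apart on chromosome V. Exons of 13 of the 42 shared bases with another gene, and no source states whether strand was used in counting, so reads of such neighbours cannot be told apart.

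**Figure D5:**
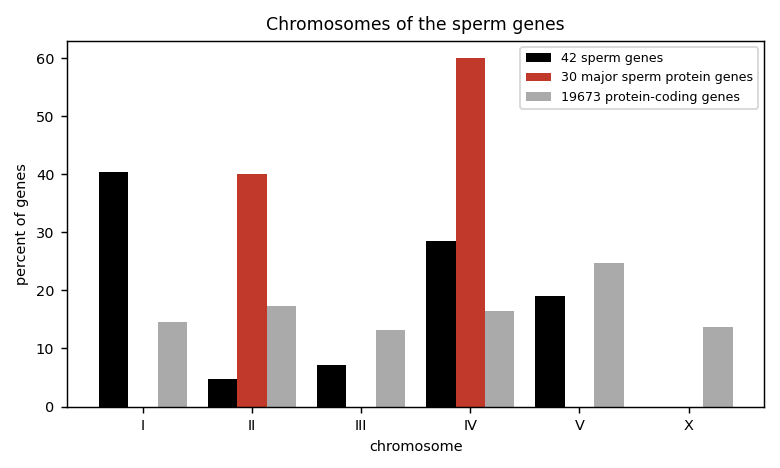
Percent of the 42 sperm genes (black), of the 30 protein-coding MSP genes (red) and of all 19673 protein-coding genes (grey) on each of the 6 chromosomes. The sperm genes reach 40.5% on chromosome I and 0 on X, and the MSP genes lie on II and IV.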

How the data were processed

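RNA of whole worms was sequenced in 9 libraries, 3 per strain (N2, WLZ1 and WLZ3, grouped by the genotype labels). The submitters' processing notes name fastp 0.23.2, HISAT2 2.2.1, featureCounts 2.0.3 and genome build WBcel235; the sources used here give no settings, strand or FPKM formula. The deposited values are FPKM per gene, made by the authors. Gene names came from a RefSeq table and positions, exon lengths and chromosomes from Ensembl release 115 (WBcel235); 28744 of 28749 genes matched, and 37 of the 42 sperm genes have the same name in both.

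Multiplying FPKM by exon length and library total gave whole reads within 0.01 for 23989 of the 26089 genes with any reads; 7 of the 42 sperm genes needed a nearby length. Genes with at least 1 FPKM in 3 of 9 libraries were tested on log2(FPKM + 1) with limma 3.58.1 in R 4.3.3 (empirical Bayes with trend, 1 mean per strain, 9 libraries, two-sided, Benjamini-Hochberg within each comparison, adjusted p under 0.05 called). limma voom was run on recovered reads with at least 10 over the 9 libraries. SE is the standard error of the log2 change. Floors and read numbers cover counting error only. Alternatives were other pseudocounts (0.1 and 0.5), filters, scalings, a replicate block, array weights, single comparisons and leaving out each library. Scripts were tested on simulated data. A planned motif count in promoters was not run because promoter sequences were not used here.

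Sperm genes and the other lists were chosen with earlier results of these data known. The 42 could all be named, but 2 are counted without being reported individually; of other lists, the called genes with the largest change, and alg-3, alg-4, fog-1, fog-3, elt-1 and cpb-1.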

Additional observations from a re-analysis of the deposited data

How the results depend on the processing

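Of 1215 values for sperm genes under 22 alternatives, 1128 kept direction and call, 49 newly passed, 30 no longer passed and 8 reversed. The reversals were uncalled differences near 0. In WLZ3 against N2 under quantile normalization they were comp-1 at -0.0058, spe-15 at 0.152, spe-41 at 0.0302 and spe-48 at -0.0013; leaving out single libraries moved spe-48 between -0.00484 (WLZ3 replicate 1) and 0.067, with -0.000342 without N2 replicate 3, and voom without WLZ3 replicate 1 gave -0.00428. In WLZ3 against WLZ1, leaving out single libraries moved spe-5 between -0.102 and 0.0209, the latter without WLZ3 replicate 2. The number tested was 42 with no filter and 6 at a mean of 5 FPKM.

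In WLZ1 against N2 the sperm genes that rose numbered 25 with no filter, 2 at the mean of 5 FPKM (fewer genes tested), 24 with no filter and pseudocount 0.1, 27 by voom, 28 by voom without N2 replicate 1 and 29 without WLZ3 replicate 1. Their median was 0.90 with no filter and pseudocount 0.1, and 1.40, 1.42 and 1.40 in the 3 voom fits. All genes that fell numbered 3278 at the mean of 5 FPKM and 4061 under quantile normalization.

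In WLZ3 against N2, array weights gave 5 rises and 1 fall, no filter with pseudocount 0.1 gave 4 rises, voom 4 rises, and voom without N2 replicate 1 or WLZ3 replicate 1 gave 1 fall each; leaving out single libraries gave 2 to 7 rises and 0 to 1 falls. All genes that fell numbered 1877 at the mean of 5 FPKM and 2245 under quantile normalization; leaving out single libraries gave 1038 to 2094 rises and 2113 to 3629 falls over all genes, and voom without WLZ3 replicate 1 gave 1067 rises.

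In WLZ3 against WLZ1 the falls numbered 15 with no filter, 0 at the mean of 5 FPKM, 14 with median-of-ratios scaling, 14 under quantile normalization, 17, 18 and 19 in the voom fits, and 5 to 11 without single libraries; the median was -1.26 by voom without WLZ3 replicate 1. All genes gave 2468 rises at the mean of 5 FPKM, 2544 under quantile normalization, 3921 falls with median-of-ratios scaling and 1066 to 1973 falls without single libraries. The cause of these shifts was not tested.

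Same-numbered libraries of different strains had deviations from their strain means that correlated at -0.145 to 0.244 over all tested genes. Libraries with different numbers were not compared, so whether the replicate numbers mark a shared batch was not tested. With the replicate block, sperm genes gave 13 rises and 1 fall, 3 rises and no fall, and 1 rise and 11 falls in the 3 comparisons, and all genes 3714 and 5909, 1550 and 2860, and 3905 and 1524. Depth limits the genes with 0 to 20 reads per library most.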
